A study of Mus musculus with 12 samples.

Results

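The genes described here are *Calr*, which encodes calreticulin (CRT), and 9 further genes of protein folding and stress in the endoplasmic reticulum (ER). They were chosen by name as the rows of the authors' table whose symbol is *Calr*, *Canx*, *Pdia3*, *Pdia4*, *Pdia6*, *Hspa5*, *Hsp90b1*, *Ddit3*, *Xbp1* or *Atf4*. Each symbol had 1 row, so the set holds 10 of the 28987 genes in the table. RNA was measured in sorted neutrophils of FVB mice, and every mouse had received 2 mL thioglycollate into the peritoneum, which draws neutrophils there. The 4 groups, with 3 libraries each, were wild-type bone marrow (BM WT), wild-type peritoneum (PT WT), and the same sites of transgenic *MRP8-Bcl2* mice (BM Bcl2 and PT Bcl2). In the transgenic mice human Bcl-2, a protein that blocks cell death, is driven by regulatory regions of human *MRP8*, a gene of the myeloid lineage. No group came from mice without thioglycollate, so the BM cells are not a resting control. The labels place collection at 6 h and name macrophages as the source, whereas the design text and the methods of the study name neutrophils and the methods give other times. The age of the mice was not given in the sources used here, and nothing says that the 3 libraries of a group came from 3 mice, so a p-value measures only the spread between these libraries.

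CRT and the membrane protein calnexin (*Canx*) are lectins that hold newly made glycoproteins in the ER until they are folded, together with the disulfide isomerase ERp57 (*Pdia3*). BiP (*Hspa5*) and GRP94 (*Hsp90b1*) are the main heat shock family chaperones of the same compartment, and *Pdia4* and *Pdia6* encode further disulfide isomerases. When unfolded proteins build up, the unfolded protein response raises these chaperones through the sensors ATF6, IRE1 and PERK. IRE1 acts through splicing of *Xbp1* mRNA, and PERK acts through translation of *Atf4* mRNA and then the cell death regulator CHOP (*Ddit3*). CRT can also leave the ER and sit on the cell surface, where macrophages read it as a signal to engulf the cell. The study reports very low CRT expression in neutrophils and, in co-culture, CRT secreted by macrophages on the neutrophil surface. Splicing, translation and surface protein were not measured here, and RNA of a bulk sample cannot tell fewer cells of a type from less RNA per cell.

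Values are in TPM, which scale a gene's reads by its length and by the total of its library, so levels can be compared between genes. Depth was low. One read on 1000 nt was estimated to be worth 0.257 to 1.20 TPM, which put *Calr* at about 49.2 to 477 reads per library and *Pdia4* at under 10 reads in 2 libraries. Genes above 0 numbered 9735, 10854 and 12138 in libraries 7, 8 and 9 of PT Bcl2. They numbered 12907 to 13463 in BM Bcl2 and 11584 to 14305 in the 6 WT libraries. A set of 108 genes with long runs of A or T took 8.93 to 65.6% of all TPM in a library, which leaves less for every other gene. All 12 libraries were run in 1 pool and 1 lane. The 6 neutrophil markers summed to 75723 to 329668 TPM in BM and 14867 to 68097 TPM in PT, and the 7 immature neutrophil markers to 10900 to 31134 TPM in BM and 78.2 to 185 TPM in PT. The 11 macrophage markers summed to between 14.7 and 147 TPM in every library, with the F4/80 gene (*Emr1*) at 0 to 18.5 TPM. Of the 3 eosinophil markers, *Epx* was listed at 0 throughout, *Prg2* was above 0 only in library 2 (4.53 TPM), and *Ccr3* read 0 to 9.60 TPM. The mouse *Bcl2* row read 0.219 to 2.37 TPM in the 6 WT libraries and 58.6 to 333 TPM in 5 of the 6 Bcl2 libraries. The library labelled PT Bcl2 with number 9 read 0.695 TPM, so the MRP8-Bcl2 comparisons were repeated without it. Library 12 (PT WT) had 481 TPM of the mast cell protease *Cpa3*, and its 5 mast cell markers summed to 678 TPM beside 4.91 to 78.0 TPM in the other libraries. Its *Ly6g* was at 0, beside 13.1 and 14.9 TPM in libraries 10 and 11 of PT WT. Its 6 neutrophil markers summed to 53971 TPM, beside 19877 and 14867 TPM in libraries 10 and 11. The 7 B cell and plasma cell markers summed to 208 TPM in library 12, 147 TPM in library 7 (PT Bcl2) and 8.70 to 92.2 TPM in the others. The 5 T cell markers summed to 177 TPM in library 7, of which *Cd3d* gave 174 TPM while *Cd3e* and *Cd3g* were listed at 0, and to 7.27 to 91.2 TPM in the others.

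The promoters of these genes are shown because 5 of the 10 hold the same element. Any link of this element to the RNA levels described below was not tested. The ER stress response element, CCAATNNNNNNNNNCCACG, is known as the site at which NF-Y (at CCAAT) and ATF6 (at CCACG) bind when unfolded proteins build up. It was searched on both strands in RefSeq windows (GRCm38.p6) from 250 bases before to 50 bases after each gene start, and all 10 genes had a window. Capitals mark these letters, and on the opposite strand the element reads CGTGG, 9 bases, ATTGG. The stretches are written 5′ to 3′ along each gene.
Calr: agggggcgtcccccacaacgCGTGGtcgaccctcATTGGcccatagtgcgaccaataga
Canx: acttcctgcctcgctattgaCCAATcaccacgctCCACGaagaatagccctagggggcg
Pdia6: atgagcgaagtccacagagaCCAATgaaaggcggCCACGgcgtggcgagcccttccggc
Hspa5: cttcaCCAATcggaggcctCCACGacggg
Hsp90b1: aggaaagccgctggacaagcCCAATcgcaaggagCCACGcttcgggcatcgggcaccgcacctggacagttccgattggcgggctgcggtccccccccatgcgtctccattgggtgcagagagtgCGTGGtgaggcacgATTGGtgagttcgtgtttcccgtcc
The *Calr* stretch lies at chr8:84847055-84847113 on the minus strand and the *Canx* stretch at chr11:50325780-50325838 on the minus strand. The *Pdia6* stretch lies at chr12:17266471-17266529 on the plus strand and the *Hspa5* stretch at chr2:34772020-34772048 on the plus strand. The *Hsp90b1* stretch lies at chr10:86705513-86705676 on the minus strand, with 1 element in each orientation. All 5 lie before the RefSeq start of their gene. The *Hspa5* stretch falls in an exon of a longer GENCODE M21 model of *Hspa5*, and is shown short for that reason, while the elements of the other 4 genes overlap no annotated exon. Of all 32851 windows, 39 (0.119%) held the full element. The shorter CCAATNNNNNNNNNCCA, which is part of the full element, was in 7 of the 10 genes, with *Pdia3* and *Pdia4* added, and in 1.09% of all windows. The windows of *Ddit3*, *Xbp1* and *Atf4* held neither. Beyond these genes, 9 tested genes held the full element, of which 0 were called between PT and BM in WT and 1 was called lower in MRP8-Bcl2 by the limma test described next, where 19.1% of all tested genes were called lower.

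*Calr* spans chr8:84841850-84846934 (GRCm38, minus strand). In BM WT it read 77.4, 30.5 and 48.1 TPM in libraries 4, 5 and 6. In PT WT it read 55.5, 58.1 and 79.6 TPM in libraries 10, 11 and 12. In BM Bcl2 it read 56.3, 119 and 164 TPM in libraries 1, 2 and 3, and in PT Bcl2 it read 20.6, 15.0 and 34.5 TPM in libraries 7, 8 and 9. The group order was therefore BM Bcl2, PT WT, BM WT and PT Bcl2, and each of these neighbours overlapped in range. All 3 PT Bcl2 libraries lay below all 3 BM Bcl2 libraries and below all 3 PT WT libraries, while PT WT and BM WT overlapped. Groups were compared on log2(TPM + 1) with limma over all 13456 tested genes, and a call needed both a 2-fold change and a p under 0.05 after Benjamini-Hochberg adjustment. In MRP8-Bcl2, *Calr* was lower in PT than in BM by a log2 fold change of -2.18 (SE 0.58, adjusted p = 0.0179), and without library 9 by -2.49 (adjusted p = 0.0189). The call was lost without library 2 (-2.08, adjusted p = 0.0623), library 3 (-1.85, adjusted p = 0.0856) or library 8 (-1.91, adjusted p = 0.0596). The median of all tested genes in that comparison was -1.02, from which *Calr* differed by -1.16 on the log2 scale, and 23.5% of genes had a lower value. With each library centred on its median the log2 fold change of *Calr* was -0.59 (adjusted p = 0.467), and with the homopolymer genes left out it was -1.43 (adjusted p = 0.144), so the call rests on the scaling. The median of all tested genes was then 0.57 and -0.53, and *Calr* lay below it in each setting. In WT the log2 fold change was 0.38 (SE 0.58, adjusted p = 0.793), with a 95% interval from -0.85 to 1.62. The pseudogene *Calr-ps* shares 56 of the 2902 31-base words of *Calr* transcripts and has no row in the table.

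**Figure D1:**
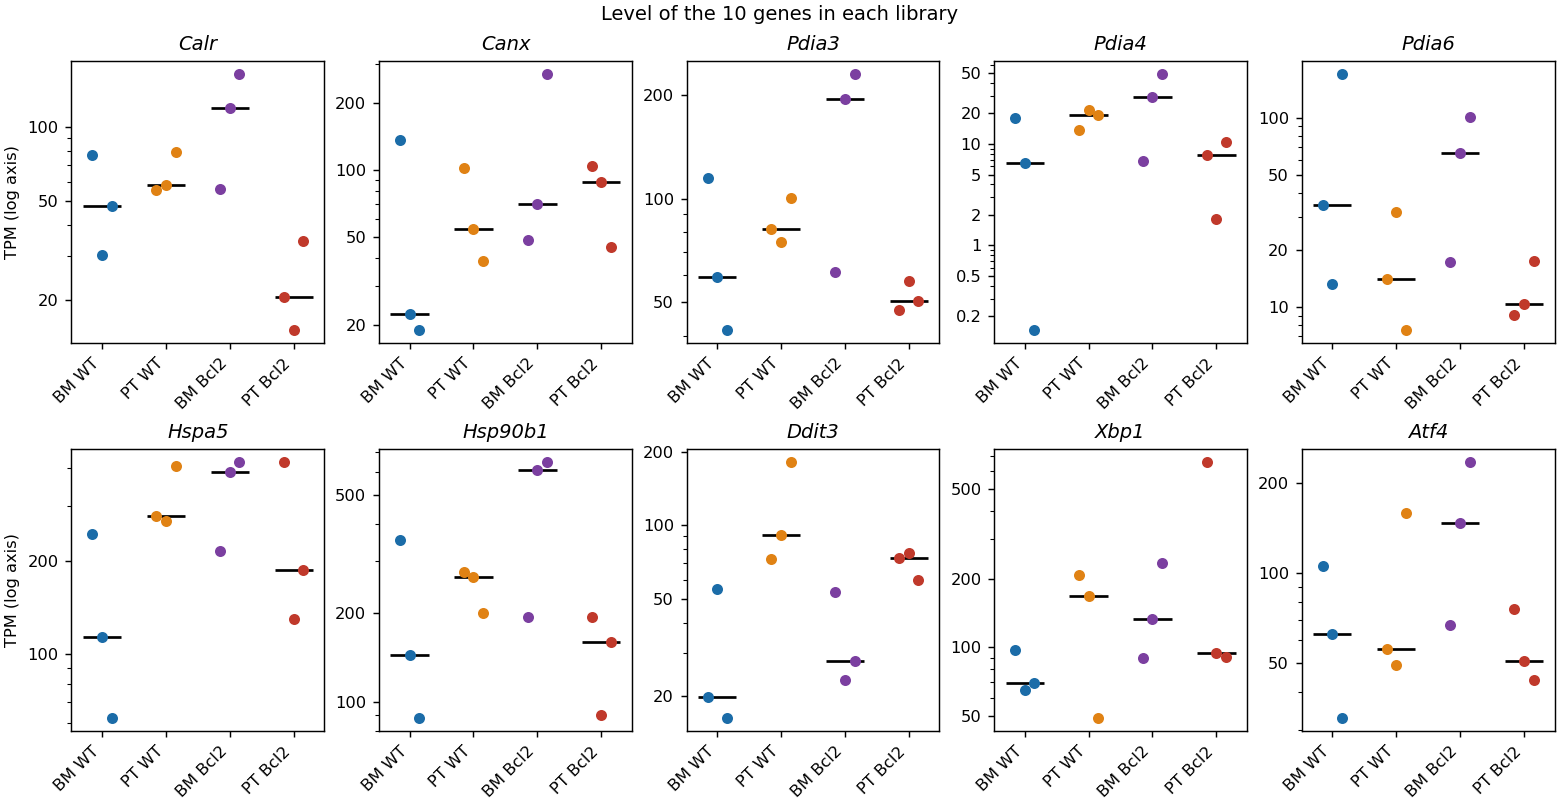
TPM on a log axis of the 10 genes, 1 point per library and 3 libraries per group, with the group median as a line. *Calr* lies between 15.0 and 34.5 TPM in PT Bcl2, below the 56.3 to 164 TPM of BM Bcl2, and *Ddit3* is higher in all PT than in all BM libraries of the same genotype.

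The partners of CRT in the glycoprotein cycle were not called in any comparison. *Pdia3* (ERp57) read 115, 59.1 and 41.4 TPM in BM WT and 81.7, 75.0 and 101 TPM in PT WT. It read 61.0, 195 and 230.1 TPM in BM Bcl2 and 47.3, 57.5 and 50.3 TPM in PT Bcl2. As for *Calr*, the PT Bcl2 libraries lay below all BM Bcl2 and all PT WT libraries, but the log2 fold change between PT and BM in MRP8-Bcl2, -1.43 (SE 0.58), was not called (limma adjusted p = 0.0893) unless library 1 was left out (-2.02, adjusted p = 0.0247). *Canx* (calnexin) read 137, 22.5 and 18.9 TPM in BM WT and 102, 54.2 and 38.9 TPM in PT WT. It read 48.5, 70.4 and 271 TPM in BM Bcl2 and 104, 88.5 and 44.7 TPM in PT Bcl2. One library of each BM group stood far above the other 2, and *Canx* overlapped in all 4 comparisons of groups. Its log2 fold change was 0.61 (SE 0.80) in WT and -0.39 (SE 0.80) in MRP8-Bcl2, and the latter turned to 0.34 without library 3.

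*Hsp90b1* and *Hspa5* were the most abundant of the 10, with *Hsp90b1* first in 4 of the 6 BM libraries and *Hspa5* first in 5 of the 6 PT libraries. *Hspa5* (BiP) read 245, 113 and 62.1 TPM in BM WT and 279.5, 269 and 405 TPM in PT WT, where all 3 PT libraries lay above all 3 BM libraries. The log2 fold change of 1.37 (SE 0.58) was not called (limma adjusted p = 0.253). *Hspa5* read 215, 388 and 417 TPM in BM Bcl2 and 417, 129.5 and 188 TPM in PT Bcl2, and these overlapped. *Hsp90b1* (GRP94) read 352, 144 and 87.9 TPM in BM WT and 274, 264 and 199.6 TPM in PT WT. It read 194, 608 and 648 TPM in BM Bcl2 and 194, 90.2 and 159 TPM in PT Bcl2, where library 1 of BM and library 7 of PT both stood at 194 TPM. Its log2 fold change in MRP8-Bcl2 was -1.59 (SE 0.60, limma adjusted p = 0.0727), and it was called without library 1 (-2.15, adjusted p = 0.0249). Of the exon bases of *Hsp90b1*, 415 of 4032 overlap *1810014B01Rik* on the opposite strand, and 4.09% of its 31-base words occur in other genes, so its level is less certain where reads could not be told apart.

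The isomerase genes *Pdia4* and *Pdia6* had the largest SEs of the 10. *Pdia4* read 17.8, 6.43 and 0.146 TPM in BM WT, 13.7, 21.5 and 19.1 TPM in PT WT, 6.87, 28.8 and 49.0 TPM in BM Bcl2 and 7.85, 1.83 and 10.5 TPM in PT Bcl2. The value of library 6 stood for about 1 read. *Pdia6* read 34.4, 13.3 and 169.9 TPM in BM WT, where the highest value came from that same library 6. It read 14.0, 31.6 and 7.52 TPM in PT WT, 17.2, 64.9 and 101 TPM in BM Bcl2 and 9.10, 10.3 and 17.5 TPM in PT Bcl2. *Pdia4* had log2 fold changes of 1.79 (SE 0.99) in WT and -1.78 (SE 0.99) in MRP8-Bcl2, and *Pdia6* of -1.46 (SE 0.89) and -1.95 (SE 0.89). None was called. Without library 6 the values in WT were 0.67 for *Pdia4* and -0.48 for *Pdia6*.

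*Ddit3*, the CHOP gene, was the member with the highest PT against BM value in both genotypes. It read 19.8, 55.0 and 16.2 TPM in BM WT and 72.5, 91.0 and 181 TPM in PT WT. It read 53.5, 23.2 and 27.8 TPM in BM Bcl2 and 73.4, 77.3 and 59.5 TPM in PT Bcl2. All PT libraries lay above all BM libraries of the same genotype, so the rank of PT over BM did not depend on library 9, 7 or 12. The log2 fold change was 1.98 (SE 0.60) in WT (limma adjusted p = 0.0950) and 1.07 (SE 0.60) in MRP8-Bcl2 (limma adjusted p = 0.206), neither of which was called. It was called in WT with the homopolymer genes left out (2.51, adjusted p = 0.0315) and in MRP8-Bcl2 with libraries centred on their median (2.66, adjusted p = 0.0156). *Ddit3* shares 4.56% of its 31-base words with other gene records, most of them with a second record of the same name.

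*Atf4* encodes the factor upstream of CHOP. It read 106, 62.5 and 32.7 TPM in BM WT, 55.8, 49.2 and 159 TPM in PT WT, 67.4, 147 and 236 TPM in BM Bcl2 and 75.9, 51.1 and 44.1 TPM in PT Bcl2. Its log2 fold change was 0.33 (SE 0.64) in WT and -1.24 (SE 0.64) in MRP8-Bcl2, and it was called in neither. The value in WT turned to -0.09 without library 6 and -0.19 without library 12. *Xbp1*, the target of IRE1 splicing, read 97.3, 64.8 and 69.5 TPM in BM WT and 209, 168 and 48.5 TPM in PT WT. It read 89.4, 133 and 236 TPM in BM Bcl2 and 659.5, 94.9 and 90.9 TPM in PT Bcl2. The value of 659.5 TPM came from library 7. *Xbp1* is also a gene of antibody-secreting cells. The sum of the B cell and plasma cell markers did not follow its order, at 147 TPM in library 7 and 208 TPM in library 12, where *Xbp1* was at its lowest. The plasma cell gene *Mzb1* read 2.47 TPM in library 7, 0.986 TPM in library 12 and up to 7.27 TPM elsewhere (library 11). *Sdc1*, a further plasma cell gene, was listed at 0 in libraries 7 and 12, and was above 0 only in libraries 6, 10 and 11. The part of such cells in the values of *Xbp1* was not tested. Without library 7 the log2 fold change of *Xbp1* in MRP8-Bcl2 turned from 0.34 to -0.60.

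Across the 10 genes, PT against BM in WT gave 0 members called higher and 0 called lower by limma, where 1.59% of all tested genes were called higher and 1.22% lower. At an unadjusted p under 0.05 there were 2 (*Hspa5* and *Ddit3*), where 16.5% of all tested genes were. The median log2 fold change of the 10 was 0.58 beside 0.22 for all tested genes. In MRP8-Bcl2, 0 members were called higher and 1 (*Calr*) lower, where 2.31% of all tested genes were called higher and 19.1% lower. The share of members called lower was thus not above that of all genes. At an unadjusted p under 0.05 there were 4, where 37.2% of all tested genes were. The median log2 fold change of the 10 was -1.33 beside -1.02 for all tested genes, and 4 members lay above that median. Of all calls in MRP8-Bcl2, 311 of 2878 were higher, against 1636 of 2103 with libraries centred on their median, so a direction in that comparison is relative to the scaling. Without library 9, *Calr* was again the 1 member called. *Canx* was then at -0.03, *Pdia3* at -1.41, *Pdia4* at -2.18, *Pdia6* at -2.21, *Hspa5* at -0.49, *Hsp90b1* at -1.67, *Ddit3* at 1.18, *Xbp1* at 0.82 and *Atf4* at -1.08 on the log2 scale, with the median of all tested genes at -1.07. Counted by range, 2 members (*Hspa5* and *Ddit3*) were higher in all PT than in all BM libraries of WT, where 14.9% of tested genes were and 7.97% were lower. In MRP8-Bcl2, 2 (*Calr* and *Pdia3*) were lower, where 32.6% of tested genes were, and 1 (*Ddit3*) was higher, where 5.18% were.

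**Figure D2:**
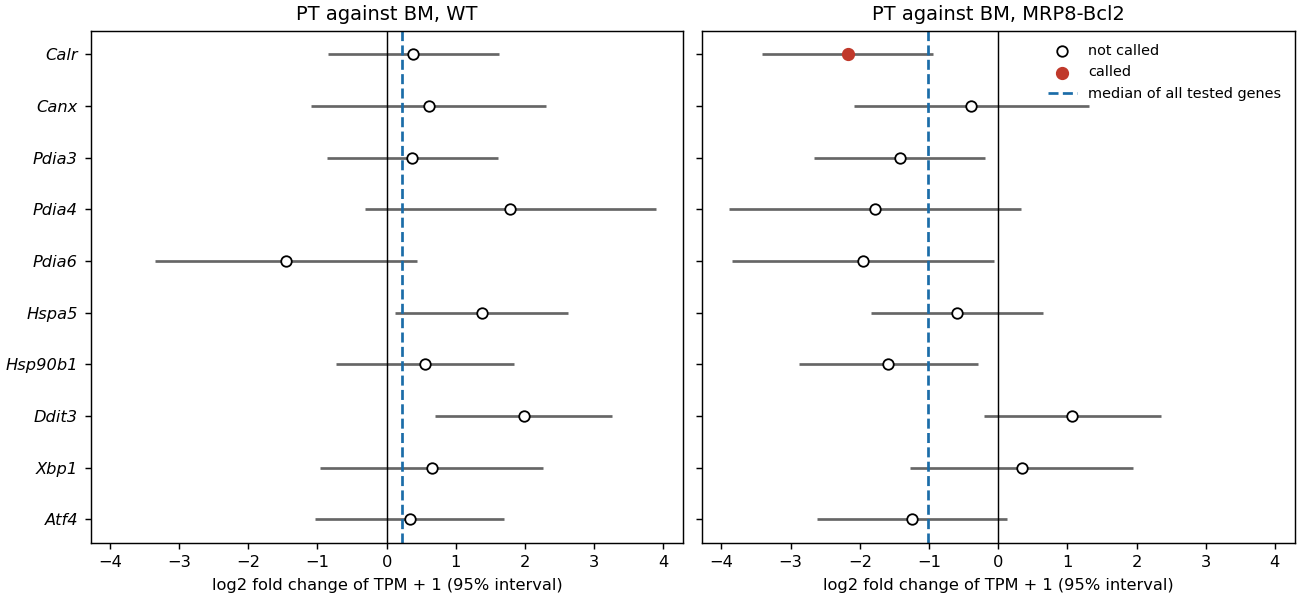
Log2 fold change of TPM + 1 between PT and BM with its 95% interval for the 10 genes in WT and MRP8-Bcl2, 3 libraries per group, and the median of all tested genes as a dashed line. The filled point is *Calr* at -2.18 in MRP8-Bcl2, and every other interval belongs to a gene that was not called.

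Between genotypes, 0 of the 10 genes were called by limma in BM, in PT or for the interaction, which asks whether the PT against BM difference itself differed between genotypes. Of all tested genes, 0.0223%, 0.0297% and 0.0149% were called in these comparisons. At an unadjusted p under 0.05 there were 2 members in BM, 1 in PT and 5 for the interaction, where 7.36%, 12.7% and 16.9% of all tested genes were. In BM all 10 genes had a value above 0 (MRP8-Bcl2 against WT), with a median of 1.11 beside 0.49 for all tested genes, yet 0 were higher in all BM Bcl2 than in all BM WT libraries, where 10% of tested genes were. In PT, 4 genes (*Calr*, *Pdia3*, *Pdia4* and *Hsp90b1*) were lower in all PT Bcl2 than in all PT WT libraries, where 18.8% of tested genes were. The interaction of *Calr* was -2.56, with a 95% interval from -4.31 to -0.81 and an adjusted p of 0.233 by limma. The difference between genotypes in the response of *Calr* was therefore not established, although it was called in one genotype and not in the other. Without library 9, 0 members were called in these comparisons, 3 were at an unadjusted p under 0.05 for the interaction, and the interaction of *Calr* was -2.87 (adjusted p = 0.186). These comparisons reuse the libraries of the PT against BM comparisons and are not independent of them.

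A ratio of 2 genes within a library does not change with what the other genes take, so it is free of the scaling. Of the 45 pairs of members, 4 had a ratio that separated all PT from all BM libraries in the same direction in both genotypes. These pairs were picked for that, so the values are a description. The share of all pairs of tested genes that separate in this way is not given here, so the count cannot be set against a background. The shares below are for a fixed denominator and for the direction of that pair only. *Ddit3* over *Atf4* was 0.187, 0.879 and 0.496 in BM WT and 1.30, 1.85 and 1.14 in PT WT. It was 0.793, 0.158 and 0.118 in BM Bcl2 and 0.968, 1.51 and 1.35 in PT Bcl2. The transcript of the death regulator was thus below that of its upstream factor in all 6 BM libraries and above it in 5 of the 6 PT libraries. The ratio to *Atf4* separated in this way for 3% of tested genes. *Hspa5* over *Hsp90b1*, the 2 heat shock family chaperones, was 0.696, 0.785 and 0.707 in BM WT and 1.02, 1.02 and 2.03 in PT WT. It was 1.11, 0.637 and 0.644 in BM Bcl2 and 2.15, 1.44 and 1.18 in PT Bcl2, and the ratio to *Hsp90b1* was higher in PT in this way for 2.77% of tested genes.

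*Calr* over *Hspa5* was 0.316, 0.269 and 0.775 in BM WT, against 0.198, 0.216 and 0.197 in PT WT. The BM Bcl2 libraries stood at 0.262, 0.307 and 0.394 and the PT Bcl2 libraries at 0.0494, 0.116 and 0.184. Relative to BiP, *Calr* was therefore lower in all PT than in all BM libraries of both genotypes, also where its TPM alone overlapped in WT. The ratio to *Hspa5* was lower in PT in this way for 11.7% of tested genes. *Pdia6* over *Xbp1* ran from 0.205 to 2.45 in BM WT, against 0.0667 to 0.188 in PT WT. The range was 0.193 to 0.486 for BM Bcl2, against 0.0138 to 0.192 for PT Bcl2, and the ratio to *Xbp1* was lower in this way for 5.14% of tested genes. For this pair the groups of MRP8-Bcl2 nearly touched.

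**Figure D3:**
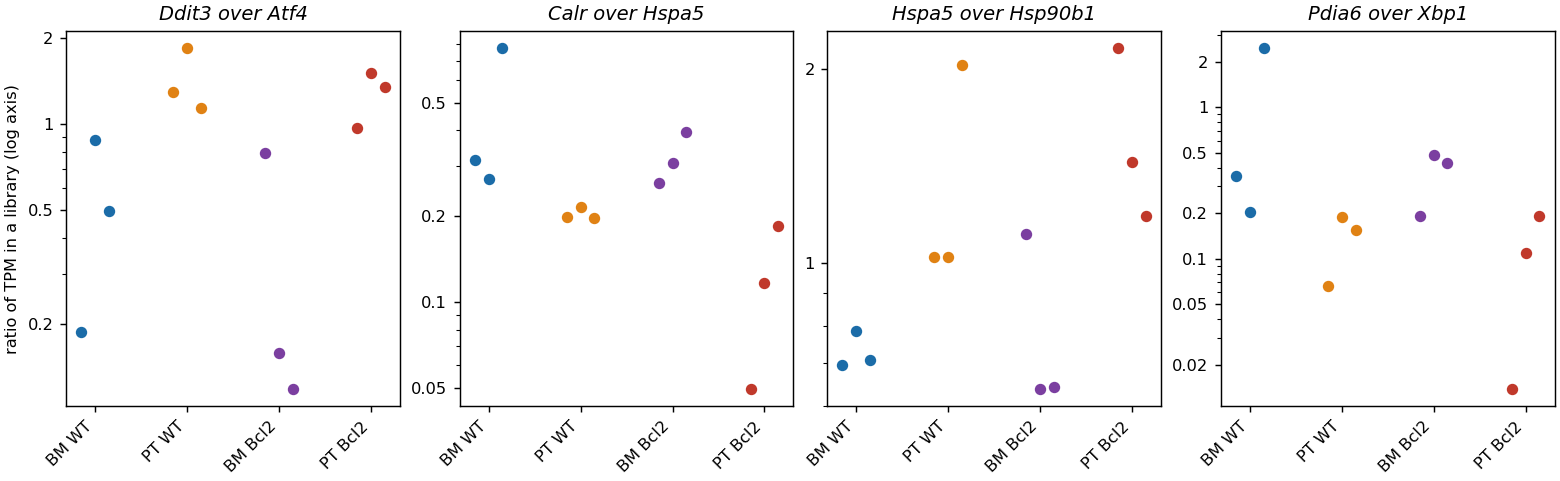
Ratio of the TPM of 2 genes within a library on a log axis, 1 point per library and 3 libraries per group, for the 4 pairs that separate PT from BM in both genotypes. *Ddit3* over *Atf4* lies between 0.118 and 0.879 in BM and between 0.968 and 1.85 in PT.

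The spread of the 10 genes within BM had an order of its own. The 6 BM libraries differed widely in *Mpo* and *Elane*, the granule enzyme genes that neutrophil precursors express, whose sum was 7255, 3304 and 1488 TPM in BM Bcl2 (libraries 3, 2 and 1). It was 2915, 422 and 985 TPM in BM WT (libraries 4, 5 and 6). Libraries 3, 2 and 4, with the most *Mpo* and *Elane*, also held the 3 highest BM values of 8 of the 10 genes, namely *Calr*, *Canx*, *Pdia3*, *Pdia4*, *Hspa5*, *Hsp90b1*, *Xbp1* and *Atf4*. Of all tested genes, 21.7% had their 3 highest BM values in these libraries. *Ddit3* ran the other way for the most part, with its highest BM values of 55.0 and 53.5 TPM in libraries 5 and 1, and *Pdia6* differed only by its value of 169.9 TPM in library 6. The summed macrophage markers were also highest in these 3 libraries, at 52.2, 116 and 108 TPM in libraries 3, 2 and 4 beside 17.9, 30.4 and 14.7 TPM in libraries 1, 5 and 6, and their part in these values was not tested. Of the 7 immature neutrophil markers, *Ctsg* and *Prtn3*, further granule enzymes of early precursors, were also highest in these 3 libraries. *Camp*, *Ngp* and *Ltf*, genes of later granules, were lowest of BM in library 3, at 2844, 2630 and 376 TPM, so the sum of all 7 was 14047, 31134 and 28373 TPM in libraries 3, 2 and 4 beside 24498, 10900 and 13595 TPM in libraries 1, 5 and 6. *Mpo* and *Elane* were picked from the 7 after the values had been seen, and the order described next is theirs and not that of the whole list. *S100a8*, an abundant gene of maturing neutrophils, was lowest in library 3 (38874 TPM) and highest in library 6 (153516 TPM).

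For *Calr* the order of the 6 BM libraries matched that of *Mpo* plus *Elane* fully. On log2(TPM + 1), Pearson's r was 0.980 (two-sided exact permutation p = 0.00417, n = 6) and Spearman's rho was 1 (two-sided exact permutation p = 0.00278, the smallest that 6 libraries can give). Without libraries 3 and 5, the farthest from the median of *Mpo* plus *Elane*, r was 0.927 (n = 4). The order held within each genotype, at 77.4, 48.1 and 30.5 TPM of *Calr* for libraries 4, 6 and 5 of WT and 164, 119 and 56.3 TPM for libraries 3, 2 and 1 of MRP8-Bcl2, where 3 libraries allow no test. This relation was picked after the values had been seen, so the p-values do not count as independent support, and the median r of all tested genes with *Mpo* plus *Elane* was already 0.391. The precursor genes were nearly gone in PT, at 3.04 to 17.2 TPM each, so *Calr* and the precursor genes were both lower in PT Bcl2 than in BM Bcl2. In WT the precursor genes were likewise far lower in PT, while *Calr* read 55.5 to 79.6 TPM in PT beside 30.5 to 77.4 TPM in BM. The part of the precursor share in the values of *Calr* was not tested.

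**Figure D4:**
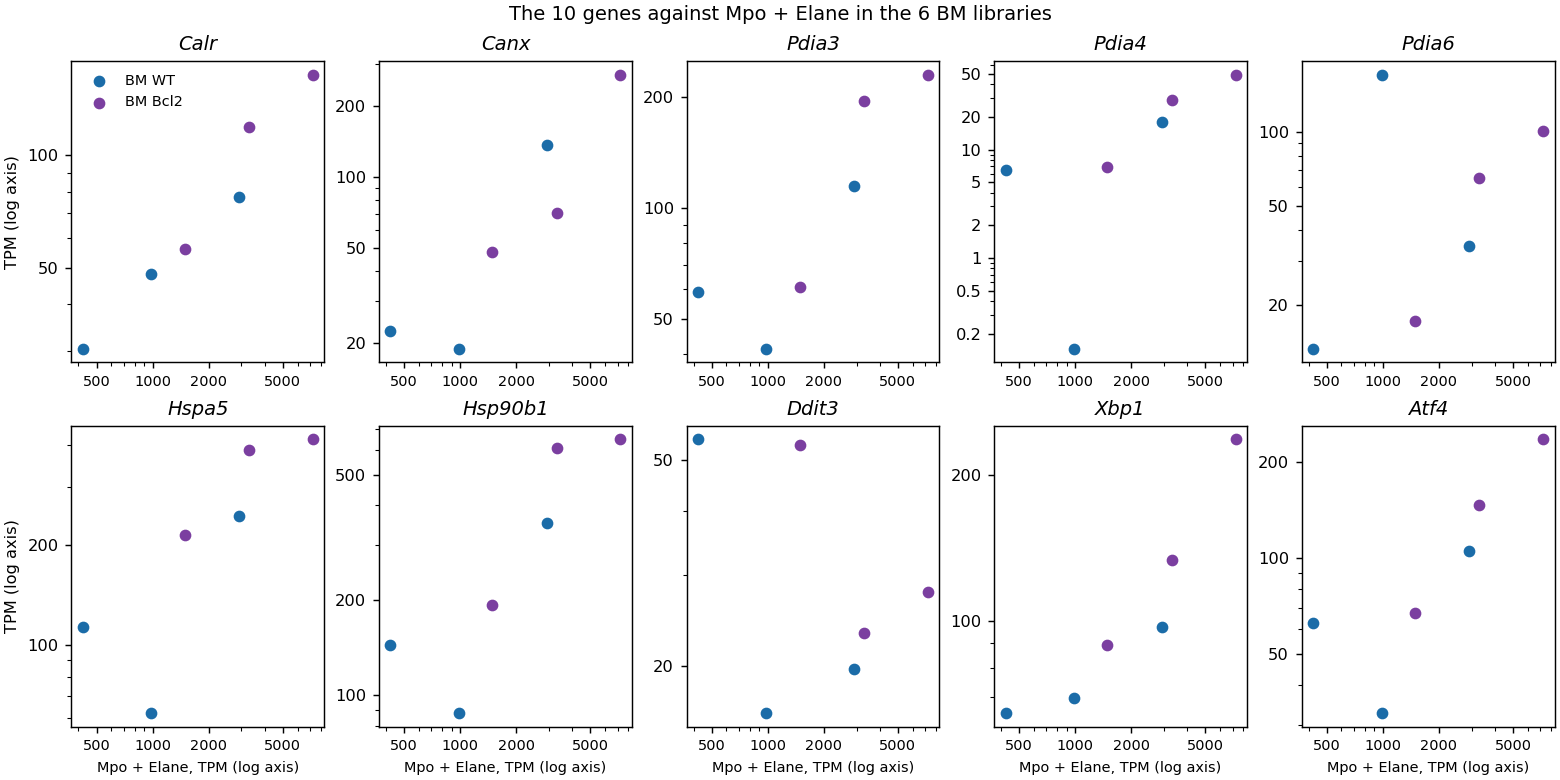
TPM of the 10 genes against the summed TPM of *Mpo* and *Elane* in the 6 BM libraries, both on log axes, coloured by genotype. *Calr* is higher at each step, from 30.5 to 164 TPM, 8 genes have their 3 highest values in the 3 libraries at the right, and *Ddit3* and *Pdia6* do not.

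Over all 12 libraries the genes whose log2(TPM + 1) was most like that of *Calr*, out of 13455 other tested genes, were *Chd9*, a chromatin helicase (r = 0.983), *Cct8*, a subunit of the cytosolic chaperonin (r = 0.963), *Dcaf13* (r = 0.960), the initiation factor *Eif2a* (r = 0.958) and *Hnrpdl*, an RNA-binding protein (r = 0.958). The other members came later, at r = 0.839 for *Pdia3*, 0.811 for *Hsp90b1*, 0.696 for *Atf4*, 0.684 for *Pdia4*, 0.572 for *Pdia6*, 0.472 for *Hspa5* and 0.316 for *Canx*. *Xbp1* stood at -0.063 and *Ddit3* at -0.362. These values are a description over 12 libraries that share their scaling, and they are not adjusted for group.

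Lists of other genes of the same pathway were described next to the members, with the background shares given above. Of 35 other ER folding enzymes and chaperones, 30 were tested, 0 were called in WT and 13 were lower in PT than in BM of MRP8-Bcl2, with a median log2 fold change of -1.94 beside -1.02 for all tested genes. The 3 with the largest changes were the proline isomerase *Ppib* (-5.61, SE 0.87), the BiP-bound *Sdf2l1* (-5.57, SE 1.02) and the membrane thioredoxin *Tmx1* (-3.09, SE 0.92). *Ppib* read 48.3 to 88.6 TPM in BM Bcl2 and 0 to 1.85 TPM in PT Bcl2, and *Sdf2l1* 25.0 to 153 TPM and 0 to 1.20 TPM, so both were below *Calr* in each PT Bcl2 library. *Ppib*, *Sdf2l1* and *Tmx1* were each at 0 in library 7, which had the fewest genes above 0. The part of such lost detection in the lower calls of this and the following lists was not tested. Of this list only *Ppib* and *Sdf2l1* stayed lower with libraries centred on their median. The count of 13 was 3 without library 2, 2 without library 3, 7 without library 7, 6 without library 8 and 8 without library 9. In WT, 1 gene was called lower without library 7 or library 11.

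Of 24 genes of translocation and N-glycosylation, which bring proteins into the ER and attach the glycans that CRT reads, 0 were called in WT and 10 were lower in MRP8-Bcl2, with a median of -2.01. They were led by the translocon-associated subunits *Ssr4* (-4.85, SE 0.78) and *Ssr2* (-4.22, SE 1.19) and the signal peptidase subunit *Sec11c* (-4.03, SE 0.61). *Sec11c* was more abundant than *Calr* in BM, at 193 to 444 TPM in BM WT and 347 to 624 TPM in BM Bcl2, and read 25.9 to 102 TPM in PT WT and 14.8 to 41.3 TPM in PT Bcl2. With libraries centred on their median, 3 stayed lower in MRP8-Bcl2 (*Ssr4*, *Sec11c* and *Spcs3*) and *Sec11c* was also lower in WT. The count of 10 was 5 without library 3 and 6 without library 8. Of 23 genes of ER-associated degradation, which removes proteins that fail to fold, 0 were called in WT and 8 were lower in MRP8-Bcl2, among them the ATPase *Vcp* (-3.40, SE 0.72) and its cofactor *Nploc4* (-3.34, SE 0.77). The median was -1.61, and 0 stayed lower with libraries centred on their median. The count of 8 was 5 without library 2 and 4 without library 3.

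Of 11 tested sensors of the response and kinases of eIF2alpha, 0 were called in WT and 1, the amino acid sensor *Eif2ak4* (-2.76, SE 0.88), was lower in MRP8-Bcl2. It was not called without library 1, 3 or 7. Of 21 tested genes downstream of *Atf4* and *Ddit3*, the same 3 were higher in PT than in BM of WT and of MRP8-Bcl2. These were the stress factor *Atf3* (4.64, SE 0.78, and 5.46, SE 0.78), the pro-apoptotic *Bcl2l11* (4.23, SE 0.67, and 2.93, SE 0.67) and the cystine transporter *Slc7a11* (4.13, SE 0.67, and 3.84, SE 0.67). *Atf3* read 0 to 1.98 TPM in BM and 15.2 to 129 TPM in PT over both genotypes, and *Slc7a11* read 7.31 to 22.2 TPM in BM and 127 to 479 TPM in PT. These 3 were also called with libraries centred on their median in both genotypes. In the same list 5 genes were lower in MRP8-Bcl2, among them the tRNA synthetases *Gars* (-3.64, SE 1.07) and *Nars* (-3.61, SE 0.87) and the amino acid transporter *Slc7a5* (-2.74, SE 0.93). None of the 5 was called with libraries centred on their median, and the count of 5 was 1 without library 2, 0 without library 3, 2 without library 7, 8 or 11 and 3 without library 5 or 10. Of 8 genes that load peptides onto MHC class I, in which CRT and ERp57 take part, 0 were called in WT and 1, the peptide transporter *Tap2* (3.04, SE 0.96), was higher in MRP8-Bcl2, at 3.73 to 7.80 TPM in BM and 21.1 to 150.0 TPM in PT. *Tap2* was not called without library 1, 2, 3, 8 or 9, and in WT 1 gene of the list was called higher without library 7. By list, the median in MRP8-Bcl2 was -1.39 for the sensors, -0.77 for the downstream genes and 0.76 for the MHC class I genes. That of all tested genes was -1.02. In the genotype comparisons and the interaction, 0 genes of the 6 lists were called by limma, and at an unadjusted p under 0.05 there were 6 in BM, 19 in PT and 25 for the interaction. For PT against BM at that threshold, WT gave 23 list genes, namely 10 downstream genes, 6 other folding genes, 2 degradation genes, 2 sensors, 2 MHC class I genes and 1 translocation gene, and MRP8-Bcl2 gave 61. Of all tested genes, 16.5% were at that threshold in WT, 37.2% in MRP8-Bcl2, 7.36% between genotypes in BM, 12.7% between genotypes in PT and 16.9% for the interaction. The list genes tested were 30 other folding, 23 degradation, 11 sensor, 21 downstream, 8 MHC class I and 24 translocation genes.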

How the data were processed

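RNA of sorted neutrophils was measured in 12 libraries, 3 per group. According to the submitters, total RNA was made into libraries with an Illumina kit, and the study's methods add cDNA amplification. Per the file headers, the authors deposited log2(TPM + 1) per gene and library, made with AltAnalyze. The aligner, the annotation and any use of strand were not given in the sources used here. The authors' group averages, fold changes and p-values, and a further abundance table with 2 columns of per-sample values, were not used. Libraries were placed in groups by their column names, which the header of a deposited marker table pairs with the groups. The columns carry a library number but no sample number.

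The 13456 genes that reached 1 TPM in 3 or more libraries were tested with limma 3.58.1 in R 4.3.3, in 1 fit of the 4 groups with an intensity trend and a pseudocount of 1. Calls needed a 2-fold change and a p under 0.05 after Benjamini-Hochberg adjustment, or for the interaction the adjusted p alone. Code was checked on simulated data. TPM holds no read totals, so the worth of 1 read was estimated from the steps between low values of 5021 genes with a single transcript. The permutation tests of the correlation listed every order of the 6 libraries. Coordinates are GRCm38 (GENCODE M21), and promoters are RefSeq GRCm38.p6.

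The members, lists and promoter motif were chosen with earlier results of these data known. All 10 members are named, and from each list up to 3 genes called in each direction with the largest change, plus the 5 genes most like *Calr*. One list gene that this rule names is not reported here. The values of *Spcs3*, of the ratios and of *Mpo* plus *Elane* were known when these were picked. Alternatives were another pseudocount, other filters, centring, quantile normalization, leaving out homopolymer genes, smaller fits, no trend, the adjusted p alone and leaving out each library.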

Additional observations from a re-analysis of the deposited data

How the results depend on the processing

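No paired analysis was possible because the columns carry no replicate number that ties a BM to a PT library. The fit with such a block was therefore not run. The values of the 10 genes for PT against BM kept their direction and their side of the threshold in 148 of 160 settings other than leaving out a library, and in 231 of 240 that left one out. Many of these settings could not change a direction. Other filters, no trend, the fit of 2 groups and leaving out a library of the other genotype keep the log2 fold change and move only its p. The shares are therefore no measure of stability. With libraries centred on their median, MRP8-Bcl2 turned to 1.20 for *Canx*, 0.16 for *Pdia3*, 1.00 for *Hspa5*, 0.0027 for *Hsp90b1* and 0.35 for *Atf4*, and with the homopolymer genes left out to 0.38 for *Canx* and 0.18 for *Hspa5*. The median of all tested genes in MRP8-Bcl2 was -1.02 in the main fit and 0.574 with centring. With the homopolymer genes left out it was -0.528. The centred values of *Pdia3*, *Hsp90b1* and *Atf4* thus lay below the centred median of all tested genes, and those of *Canx* and *Hspa5* above it. Leaving out 1 library gave -0.19 to 0.73 for *Atf4* in WT, -0.89 to 0.34 for *Canx* and -0.60 to 0.82 for *Xbp1* in MRP8-Bcl2.

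Counts of the 10 genes called moved as follows, and the cause was not tested. In WT 1 was higher with the homopolymer genes left out. In MRP8-Bcl2 1 was higher with centring, and 0 were lower with centring, quantile normalization or the homopolymer genes left out, against 0 to 3 when 1 library was left out. For the lists in WT, leaving out the homopolymer genes gave 1 other folding gene, 1 sensor, 6 downstream genes and 2 MHC class I genes called higher. In WT 1 other folding gene was lower with the stricter filter or quantile normalization (0 to 1 without a library), and 1 translocation gene with centring or quantile normalization. The MHC class I count in WT was 0 to 1 without a library. Of all tested genes in WT, 479 of 13999 were called higher with the homopolymer genes left out. Calls in both directions were 309 of 13456 with centring (112 higher) and 497 of 13456 with quantile normalization (233 higher).

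For the lists in MRP8-Bcl2, called higher with centring were 1 other folding gene, 2 degradation genes, 8 downstream genes, 4 MHC class I genes and 1 translocation gene. With quantile normalization these were 1 other folding gene, 1 degradation gene and 6 downstream genes, and with the homopolymer genes left out 6 downstream and 4 MHC class I genes. Of all 13456 tested genes, 1636 were called higher with centring and 678 with quantile normalization. With the homopolymer genes left out, 565 of 13999 were. Without a filter the MHC class I count was 0, and without a library 0 to 1. Called lower, the other folding genes were 5 without a filter, 2 with centring, quantile normalization or the homopolymer genes left out, 6 in the fit of 2 groups and 2 to 13 without a library. Degradation genes were 0 with centring, 1 with quantile normalization, 2 without the homopolymer genes, 5 in the fit of 2 groups and 4 to 7 without a library. The sensor count was 0 in each of these and without a filter, and 0 to 1 without a library. Downstream genes were 3 with a pseudocount of 0.1, 2 in the fit of 2 groups, 0 without a filter, with centring, quantile normalization or the homopolymer genes left out, and 0 to 6 without a library. Translocation genes were 5 without a filter, 3 with centring, 4 with quantile normalization, 5 without the homopolymer genes and 5 to 13 without a library. Calls of all tested genes in both directions were 2103 with centring, 1457 with quantile normalization and 1642 without the homopolymer genes. Such counts for the other settings are not given here.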
